A study of Mus musculus with 6 samples.

Results

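The 10 genes described here are *Comp*, *Tnmd*, *Scx*, *Mkx*, *Fmod*, *Thbs4*, *Kera*, *Chad*, *Cilp2* and *Dcn*, which encode transcription factors, a membrane protein and matrix proteins of tendon and of the connective tissue around muscle. They are 10 of the 23997 gene symbols quantified in gastrocnemius muscle, the large muscle of the calf, from 21-day-old mice. The list was chosen by gene name after the FPKM of these same mice had been compared between genotypes, so the genotype differences of the 10 genes are given as a description, and the p-values that the fit across all genes gives them are not used as evidence. One library was made per mouse. The mutant group (HrasG12V, n = 3: mice 2276, 2278 and 2279) was heterozygous for the G12V allele (HrasG12V/+) and carried Caggs-Cre. The wild-type group (WT, n = 3: littermates 2277, 2280 and 2281) was Hras+/+ by its label and lacked Cre, while its strain entry shows that it carried the floxed, unrecombined HrasflG12V allele. Caggs-Cre is driven by a promoter active throughout the body, but recombination in the cells of tendon and connective tissue was not measured here. Cre and the mutation came together in every HrasG12V mouse, and their effects cannot be told apart. Neither group was treated.

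Tendon joins muscle to bone through parallel bundles of type I collagen. Tendon cells are specified by the transcription factors scleraxis (*Scx*) and mohawk (*Mkx*), and tenomodulin (*Tnmd*) marks their mature state. Between the collagen fibrils lie small leucine-rich proteoglycans, such as fibromodulin (*Fmod*), keratocan (*Kera*) and decorin (*Dcn*), which bind collagen and limit the thickness of the fibrils. The pentameric thrombospondins *Comp* and *Thbs4* bridge collagens and other matrix proteins, and force on the muscle is passed through this matrix. In a whole muscle sample these transcripts come from the tendon and aponeurosis taken with the muscle and from cells between the fibers, and fewer such cells cannot be told apart from less RNA per cell.

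Of the 10 genes, 8 had a lower mean FPKM in HrasG12V than in WT muscle by at least 1 on the log2 scale, and 2 (*Dcn* and *Scx*) were within 0.15 of the WT level. FPKM is a read count scaled to transcript length and to library size, so levels can be set side by side between genes, and log2 differences are HrasG12V minus WT on log2(FPKM + 0.1). The count of 8 was 6 without HrasG12V mouse 2276, where *Mkx* and *Thbs4* were above -1, and 7 without WT mouse 2280. A difference of -1 or lower was found for 2.08% of the 13359 genes tested. The median over the 10 genes was -1.53, against -0.03 over all genes tested. In 7 of the 10 genes every HrasG12V mouse was below every WT mouse, an order seen for 10.4% of all genes tested, and the values of *Thbs4*, *Dcn* and *Scx* overlapped. By the limma fit across all genes, 8 of the 10 had an unadjusted p below 0.05, each of them lower in HrasG12V, and 0 of the 10 had an adjusted p below 0.05. Over all genes tested 10.2% had such an unadjusted p, 4.99% with a lower and 5.18% with a higher level in HrasG12V, and 0.0599% had such an adjusted p. Because the list was picked with this contrast known, these counts carry no weight of their own.

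**Figure D1:**
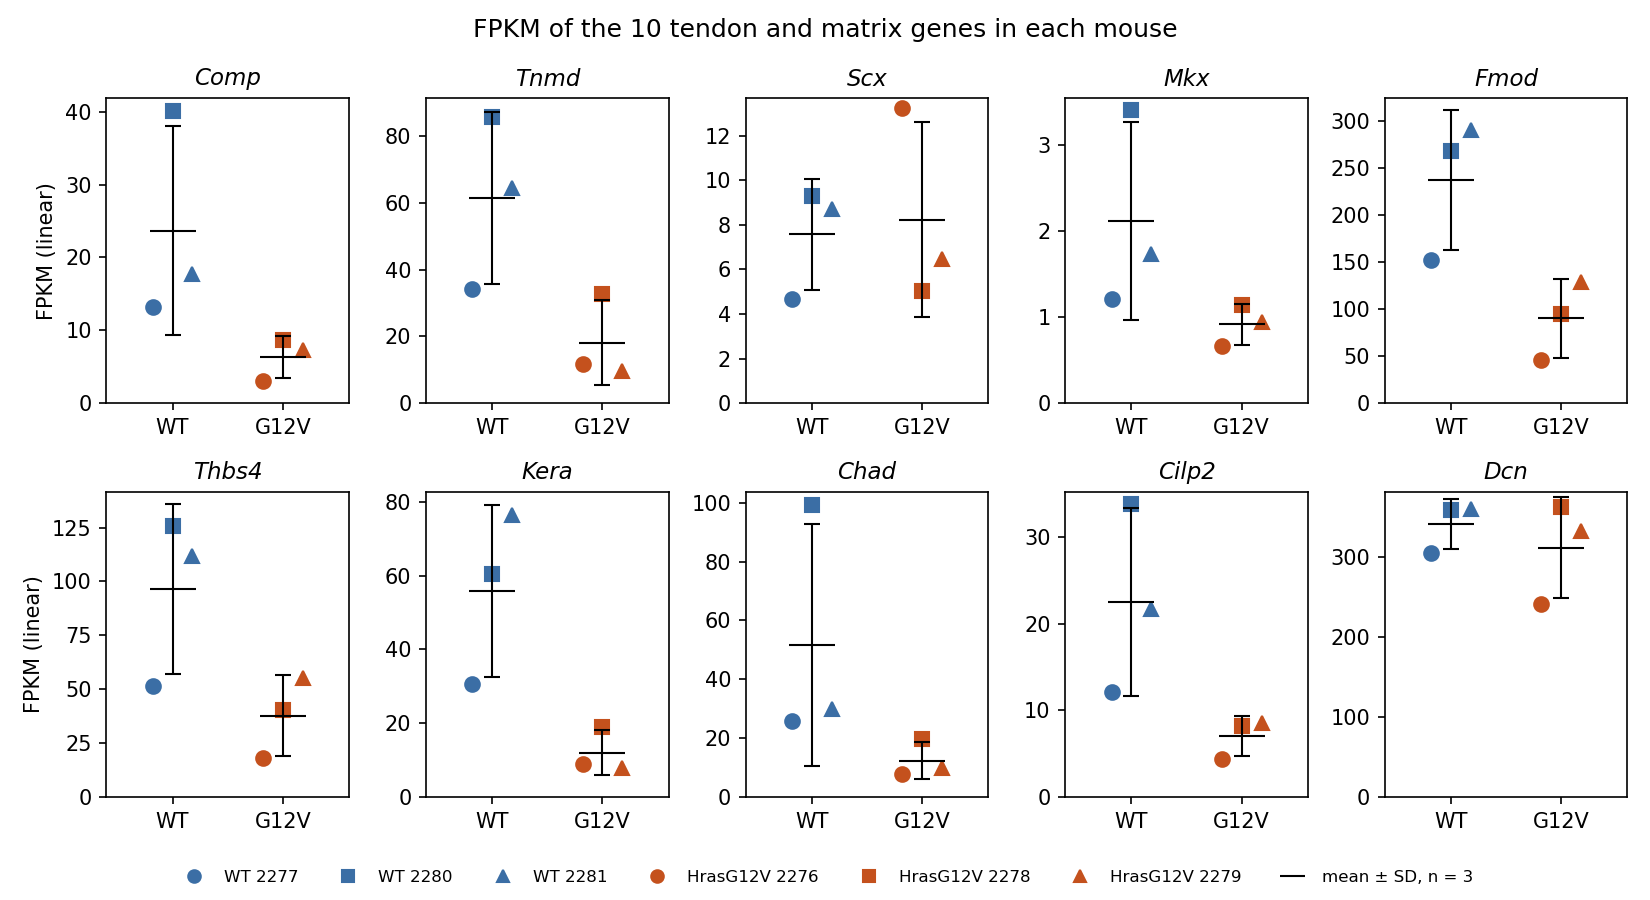
FPKM (linear vertical axes, each starting at 0) of the 10 genes in 3 WT (blue) and 3 HrasG12V (orange) mice, 1 symbol per mouse, with the mean ± SD (black, n = 3). In 7 panels all orange points lie below all blue points; *Thbs4*, *Scx* and *Dcn* overlap, and mouse 2276 is the highest of all 6 for *Scx* (13.2 FPKM).

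As the genes with lower values shared a direction, the bases before their RefSeq transcription starts are shown here, with the E-box (CANNTG), the kind of site that scleraxis and other basic helix-loop-helix factors bind, in capitals. Each line gives the strand of the gene, 5′ to 3′, on GRCm38.p6. A RefSeq window of 250 bases before the start was found for 6 of the 10 genes. *Fmod* is read from chr1:134037004-134037253 (plus strand), *Thbs4* from chr13:92794819-92795068 (minus), *Chad* from chr11:94564797-94565046 (plus) and *Tnmd* from chrX:133850758-133850979 (plus, the 222 bases outside the longer GENCODE gene).
*Fmod*: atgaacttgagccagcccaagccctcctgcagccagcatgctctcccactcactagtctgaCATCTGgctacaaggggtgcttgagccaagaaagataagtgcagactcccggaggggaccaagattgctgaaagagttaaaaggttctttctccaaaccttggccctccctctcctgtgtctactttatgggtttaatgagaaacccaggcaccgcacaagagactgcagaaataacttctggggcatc
*Thbs4*: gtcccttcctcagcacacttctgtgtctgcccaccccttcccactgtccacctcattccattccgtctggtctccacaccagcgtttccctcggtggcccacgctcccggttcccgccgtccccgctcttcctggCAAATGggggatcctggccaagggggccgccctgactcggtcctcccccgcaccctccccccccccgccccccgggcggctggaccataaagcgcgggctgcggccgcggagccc
*Chad*: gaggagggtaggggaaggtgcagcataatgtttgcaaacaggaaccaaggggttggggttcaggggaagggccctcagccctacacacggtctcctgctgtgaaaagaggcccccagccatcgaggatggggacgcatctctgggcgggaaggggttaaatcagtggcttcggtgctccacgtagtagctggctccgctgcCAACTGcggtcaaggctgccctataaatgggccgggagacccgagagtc
*Tnmd*: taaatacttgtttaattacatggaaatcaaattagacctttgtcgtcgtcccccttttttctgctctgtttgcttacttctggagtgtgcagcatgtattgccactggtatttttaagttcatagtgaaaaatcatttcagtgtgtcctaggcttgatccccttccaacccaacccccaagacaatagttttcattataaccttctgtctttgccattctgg

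The windows of *Kera* and *Cilp2* lie inside longer GENCODE gene models and are not printed. Of the 6 windows, 4 (*Fmod*, *Thbs4*, *Chad* and *Cilp2*) held 1 E-box each and those of *Tnmd* and *Kera* held none, while 66.2% of all 32851 RefSeq windows of this length held at least 1. The E-box of *Fmod* (CATCTG, 189 bases before the start) is of the form CAGATG on the opposite strand, which 14.4% of windows held on either strand. *Chad* had its E-box 49 bases before the start and the letters TATAAA, which general transcription factors bind, 28 bases before it, and 12.4% of windows held them on either strand. GTCTG on either strand, the letters SMAD proteins bind, occurred in 3 of the 6 windows against 42.2% of all windows, and the EGR site GCGTGGGCG in 0 of 6 against 0.536%. A match is a description of the letters and shows no binding.

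The log2 differences of the transcription factors *Scx* and *Mkx* were not alike over all mice, but whether they differed from each other was not tested. Without mouse 2276 they lay closer, at -0.34 for *Scx* and -0.84 for *Mkx*. *Scx*, the factor that defines the tendon lineage, was at 4.70, 9.29 and 8.73 FPKM in the WT mice (2277, 2280 and 2281) and at 13.2, 5.03 and 6.45 FPKM in HrasG12V mice 2276, 2278 and 2279. Mouse 2276 was above all WT mice and the other HrasG12V mice were within the WT range, and the log2 difference was 0.06 (standard error 0.42). *Mkx*, a homeobox factor that maintains collagen production in tendon, was at 1.21, 3.41 and 1.74 FPKM in the WT mice and at 0.667, 1.15 and 0.942 FPKM in the HrasG12V mice, a log2 difference of -1.03 (standard error 0.41). All 3 HrasG12V mice were below the lowest WT mouse, but mouse 2278 by only a small margin. The WT mean of *Mkx* also rested on mouse 2280, without which the log2 difference was -0.64. *Scx* (GRCm38 chromosome 15, 76457452 to 76459458, plus strand) lies inside *Bop1*, a ribosome assembly gene on the minus strand, and in the GENCODE vM21 models no exon of *Bop1* overlaps the longest *Scx* transcript. *Bop1* was also highest in mouse 2276, at 19.0 FPKM against 10.9 to 11.6 FPKM in the other 5 mice. The library kit keeps strand, but whether the quantification used it is not given in the sources used here, so the part of *Bop1* reads in the *Scx* value was not tested. A non-coding gene model on the same strand as *Mkx* shares an exon stretch with its longest transcript, so reads there may be split between them.

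*Tnmd* (chromosome X, 133850980 to 133865577, plus strand), a membrane protein of mature tendon cells, was at 34.3, 85.7 and 64.4 FPKM in the WT mice (2277, 2280 and 2281) and at 11.7, 32.8 and 9.75 FPKM in HrasG12V mice 2276, 2278 and 2279. The log2 difference was -1.88 (standard error 0.54). HrasG12V mouse 2278 came close to the lowest WT mouse, whereas the other two were well below it. The ratio of *Tnmd* to *Scx* FPKM was 7.31 to 9.23 in the WT mice and 0.886, 6.53 and 1.51 in HrasG12V mice 2276, 2278 and 2279. The ratio in mouse 2276 draws on its *Scx* value of 13.2 FPKM, in which the part of *Bop1* reads was not tested. Without that mouse the log2 difference was -0.34 for *Scx* and -1.68 for *Tnmd*.

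Among the small leucine-rich proteoglycans, *Kera* had the lowest log2 difference of the 10 genes. *Kera* was at 30.5, 60.5 and 76.4 FPKM in the WT mice (2277, 2280 and 2281) and at 8.96, 19.0 and 7.93 FPKM in HrasG12V mice 2276, 2278 and 2279, a log2 difference of -2.22 (standard error 0.46). Keratocan carries keratan sulfate and is best known from the cornea. *Fmod* was at 152, 268 and 291 FPKM in the WT mice and at 46.2, 95.4 and 129 FPKM in the HrasG12V mice, a log2 difference of -1.46 (standard error 0.45). The HrasG12V mean of *Fmod* was 38.03% of the WT mean, and that of *Kera* was 21.4%. *Chad*, chondroadherin, which binds collagen and integrins, was at 25.7, 99.1 and 29.9 FPKM in the WT mice and at 7.70, 19.6 and 9.83 FPKM in the HrasG12V mice, a log2 difference of -1.89 (standard error 0.59). Its WT mean rested on mouse 2280, more than 3 times as high as the other two, and the log2 difference was -1.27 without that mouse. *Chad* lies inside *Acsf2*, a gene of fatty acid metabolism on the opposite strand, with no exon in common, and *Acsf2* was at 2.40 to 4.74 FPKM in the 6 mice, with the genotypes overlapping.

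*Dcn*, decorin, the most abundant of the 10 genes, stood apart from the other proteoglycans. It was at 306, 359.5 and 361 FPKM in the WT mice and at 241, 362 and 333 FPKM in HrasG12V mice 2276, 2278 and 2279, a log2 difference of -0.15 (standard error 0.27). Mouse 2276 was below and mouse 2278 just above all WT mice. Decorin is made by most fibroblasts, in tendon and between muscle fibers. The ratio of *Fmod* to *Dcn* FPKM was 0.498 to 0.808 in the WT mice and 0.192 to 0.388 in the HrasG12V mice, and that of *Kera* to *Dcn* was 0.0998 to 0.212 against 0.0238 to 0.0524, with no overlap for either ratio. *Fmod* and *Kera* were each without overlap and chosen with this contrast known, so the separation of these ratios carries no weight of its own.

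The thrombospondins and *Cilp2* shared the direction. *Comp*, also called thrombospondin 5, was at 13.2, 40.0 and 17.8 FPKM in the WT mice (2277, 2280 and 2281) and at 3.09, 8.65 and 7.36 FPKM in HrasG12V mice 2276, 2278 and 2279, a log2 difference of -1.84 (standard error 0.53). *Thbs4* was at 51.6, 126 and 112 FPKM in the WT mice and at 17.9, 40.4 and 55.0 FPKM in the HrasG12V mice, a log2 difference of -1.39 (standard error 0.52). For *Thbs4*, HrasG12V mouse 2279 was above WT mouse 2277, so the genotypes overlapped. *Cilp2*, cartilage intermediate layer protein 2, a secreted matrix glycoprotein, was at 12.1, 33.7 and 21.6 FPKM in the WT mice and at 4.34, 8.23 and 8.54 FPKM in the HrasG12V mice, a log2 difference of -1.60 (standard error 0.43). The HrasG12V mice were close to each other for *Cilp2*, the highest 1.97 times the lowest, against 2.79 times in WT.

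In order of mean FPKM, the WT mice had *Dcn* (342 ± 31.5, SD, n = 3), *Fmod* (237 ± 74.5), *Thbs4* (96.3 ± 39.4), *Tnmd* (61.5 ± 25.8), *Kera* (55.8 ± 23.3), *Chad* (51.6 ± 41.2), *Comp* (23.7 ± 14.4), *Cilp2* (22.5 ± 10.8), *Scx* (7.57 ± 2.51) and *Mkx* (2.12 ± 1.15). In WT, the ranges of *Dcn*, *Fmod* and *Thbs4* were separate from each other, those of neighbours from *Thbs4* to *Cilp2* overlapped, and *Scx* and *Mkx* were each below the gene before them in every mouse. The HrasG12V mice had *Dcn* (312 ± 63.3), *Fmod* (90.2 ± 41.7), *Thbs4* (37.8 ± 18.7), *Tnmd* (18.1 ± 12.8), *Chad* (12.4 ± 6.34), *Kera* (11.96 ± 6.12), *Scx* (8.23 ± 4.38), *Cilp2* (7.04 ± 2.34), *Comp* (6.37 ± 2.91) and *Mkx* (0.918 ± 0.240). There, only *Dcn* and *Fmod*, and *Comp* and *Mkx*, were separate neighbours. The mean of *Scx* was above those of *Cilp2* and *Comp* in HrasG12V through mouse 2276 alone (13.2 FPKM), and in mice 2278 and 2279 *Scx* was below both genes, as it was in WT.

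The mice of one genotype differed in the same sense for most of the 10 genes. Within WT, mouse 2277 had the lowest value of all 10 genes, whereas it was the lowest WT mouse for 31.1% of all genes tested. Mouse 2280 had the highest WT value of 7 genes (27.6% of all genes tested). Within HrasG12V, mouse 2276 was lowest for 7 of the 10 (39.2% of all genes tested) and highest for *Scx*, and mouse 2278 was highest for 6 (26.3% of all genes tested). The median difference from the WT mean over the 10 genes, on the log2 scale, was -0.70, 0.53 and 0.12 in WT mice 2277, 2280 and 2281 and -2.29, -1.13 and -1.12 in HrasG12V mice 2276, 2278 and 2279. For *Kera* and *Tnmd* the lowest mouse was 2279 and not 2276, and *Fmod* and *Thbs4* were highest in mouse 2279 among the HrasG12V mice, so the order of the mutant mice was not the same for each gene.

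**Figure D2:**
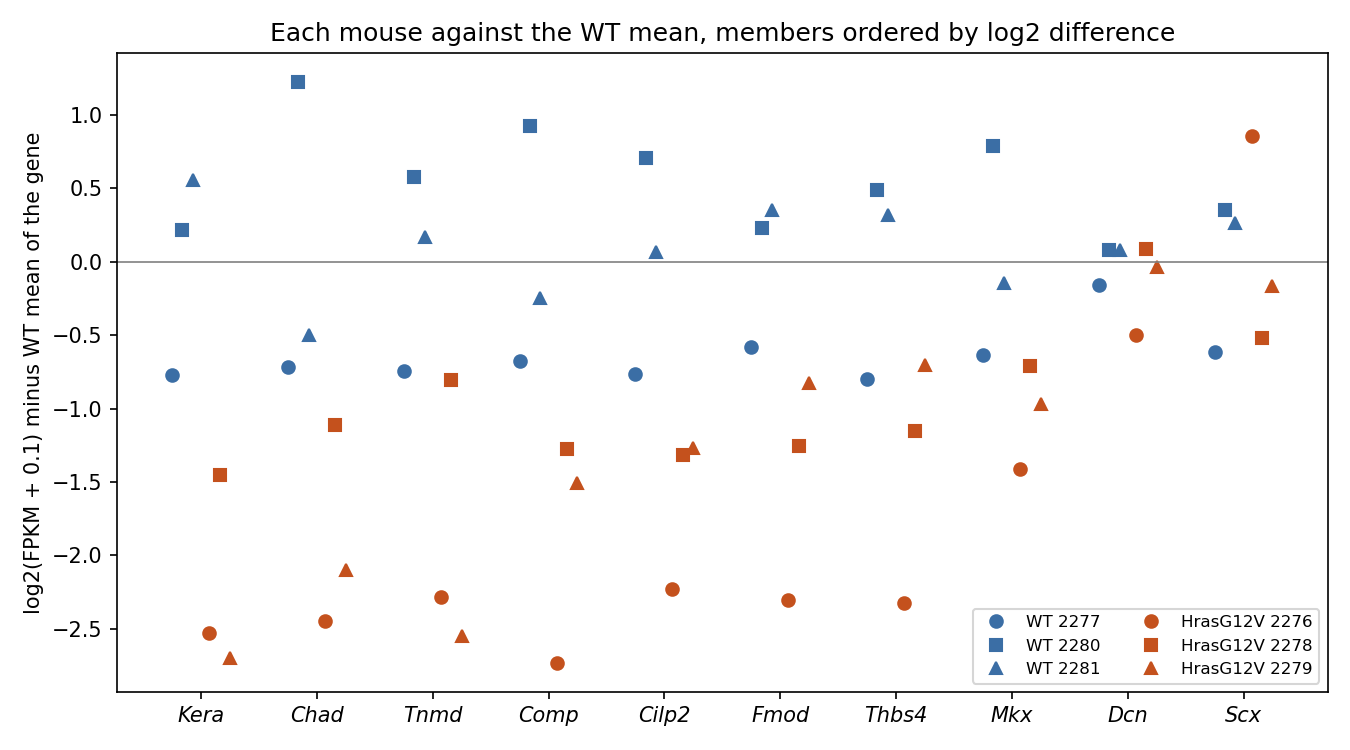
Difference of each mouse from the WT mean of the gene, on log2(FPKM + 0.1), for the 10 genes ordered by their log2 difference between genotypes; 1 symbol per mouse, WT in blue and HrasG12V in orange, circles for the mice 2277 and 2276 without Y linked transcripts. WT mouse 2277 is the lowest WT point for every gene, and mouse 2276 is the lowest or second lowest orange point except for *Scx*, where it is the highest.

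Mice 2277 and 2276 were also the mice of their genotype with Y linked transcripts (*Ddx3y*, *Eif2s3y*, *Kdm5d* and *Uty*) near 0, at a mean of 0.0426 and 0.0230 FPKM against 17.7 to 20.0 FPKM in the other 4 mice, and the labels give no sex. Between these 2 mice, 2276 minus 2277, the log2 difference was -2.06 for *Comp*, -1.54 for *Tnmd*, -1.76 for *Kera*, -1.72 for *Fmod*, -0.34 for *Dcn* and 1.47 for *Scx*. Among the 4 mice with Y linked transcripts it was -1.73 for *Comp*, -2.05 for *Tnmd*, -2.46 for *Kera*, -1.33 for *Fmod*, -0.05 for *Dcn* and -0.65 for *Scx*. Genotype differences of the genes other than *Scx* thus had the same sign in both sets, and *Scx* differed in sign between them. Mouse 2276 stood apart in other ways. Its FPKM summed to 814013, against 413020 to 547122 in the other 5 mice, and limma's array weights gave it 0.0933, the lowest of the 6. Without it the log2 difference was nearer 0 for each of the 8 genes with lower values: -2.07 for *Kera*, -1.68 for *Tnmd*, -1.60 for *Chad*, -1.39 for *Comp*, -1.29 for *Cilp2*, -1.04 for *Fmod*, -0.93 for *Thbs4* and -0.84 for *Mkx*. That of *Dcn* turned from -0.15 to 0.03 and that of *Scx* from 0.06 to -0.34. The *Hras* gene itself was at 16.002 to 58.8 FPKM in HrasG12V and 36.0 to 51.8 FPKM in WT mice, a sum over both alleles that does not show the mutation.

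Some of the 10 genes lie next to relatives in the genome. *Dcn*, *Lum*, *Kera* and *Epyc* lie in that order on chromosome 10 of GRCm38, from 97479609 (start of *Dcn*) to 97682454 (end of *Epyc*). Their log2 differences were -0.15 for *Dcn*, -0.54 for *Lum* and -2.22 for *Kera*, and *Epyc* was below the limit for testing at a mean of 0.0357 FPKM. On chromosome 1, *Fmod* (134037254 to 134048277, plus strand) has *Prelp* and *Optc* as family members nearby. *Prelp* had a log2 difference of -0.36 against -1.46 for *Fmod*, and *Optc* had a mean of 0.0446 FPKM, too low to be tested. *Cilp2* (69880369 to 69887687, minus strand) and *Comp* (70373558 to 70382066, plus strand) are 486 kb apart on chromosome 8. Of the 18 genes tested between them, 0 had an unadjusted limma p below 0.05, and their median log2 difference was -0.06.

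The question of how far the rest of the tendon matrix moved with the 10 genes was addressed with 5 lists of other genes, none of which had a gene with an adjusted limma p below 0.05. The counts are to be read against the 10.2% of all genes tested with an unadjusted p below 0.05. Of 15 other small leucine-rich proteoglycans, 11 passed the limit of a mean of 0.5 FPKM. Of these 1 was lower and 0 higher by the unadjusted limma p, with a median log2 difference of -0.54. The lower one was *Nepn*, nephrocan, at 0.676 to 1.25 FPKM in WT and 0.251 to 0.541 FPKM in HrasG12V mice, a log2 difference of -1.09 (standard error 0.44, limma, adjusted p = 0.483). With 1 mouse left out in turn it stayed past the unadjusted threshold 1 of 6 times. *Nepn* passed the limit of 0.5 FPKM only through the WT mice (mean 0.895 FPKM, against 0.368 FPKM in HrasG12V), so its call carries no weight of its own. *Chadl*, a close relative of *Chad*, had the highest log2 difference of the list, at 0.45.

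Collagens differed widely among themselves. Of 30 tendon collagens, crosslinking enzymes and adhesive matrix genes, all tested, 3 were lower and 0 higher by the unadjusted limma p, while 29 had a negative log2 difference and the median was -0.57. *Col11a1* and *Col11a2* encode chains of type XI collagen, which sets the width of new fibrils. *Col11a2* was at 10.7, 24.3 and 15.3 FPKM in the WT mice (2277, 2280 and 2281) and at 3.22, 7.94 and 4.45 FPKM in HrasG12V mice 2276, 2278 and 2279, a log2 difference of -1.69 (standard error 0.41, limma, adjusted p = 0.378). *Col11a1* had a log2 difference of -2.18 (standard error 0.69, limma, adjusted p = 0.435), and with 1 mouse left out in turn it stayed past the unadjusted threshold 3 of 6 times. *Col12a1*, a collagen on the fibril surface, was at 5.24, 11.5 and 8.90 FPKM in the WT mice and at 0.935, 4.59 and 1.83 FPKM in the HrasG12V mice, a log2 difference of -1.97 (standard error 0.57, limma, adjusted p = 0.406). Every HrasG12V mouse was below every WT mouse for 4 of the 30 genes, these 3 among them, against 10.4% of all genes tested. *Col11a2* and *Col12a1* stayed past the unadjusted threshold whichever of the 6 mice was left out. *Col1a1* and *Col1a2*, the chains of type I collagen, had log2 differences of -1.49 (standard error 0.75) and -1.61 (standard error 0.76) that did not pass the unadjusted threshold, with mouse 2278 inside the WT range for both. Those of *Col3a1*, *Col5a1* and *Col14a1* were -0.54, -0.20 and -0.30, and none of the 3 passed it.

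HrasG12V mouse 2278 was near the WT level over the collagen list but below it over the 10 genes. Its median difference from the WT mean was 0.15 over the collagen list and -1.13 over the 10 genes, whereas in mice 2276 and 2279 the collagen list was at -0.85 and -1.14. Without mouse 2278 the number of lower genes in the collagen list was 19 of 30 in place of 3.

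**Figure D3:**
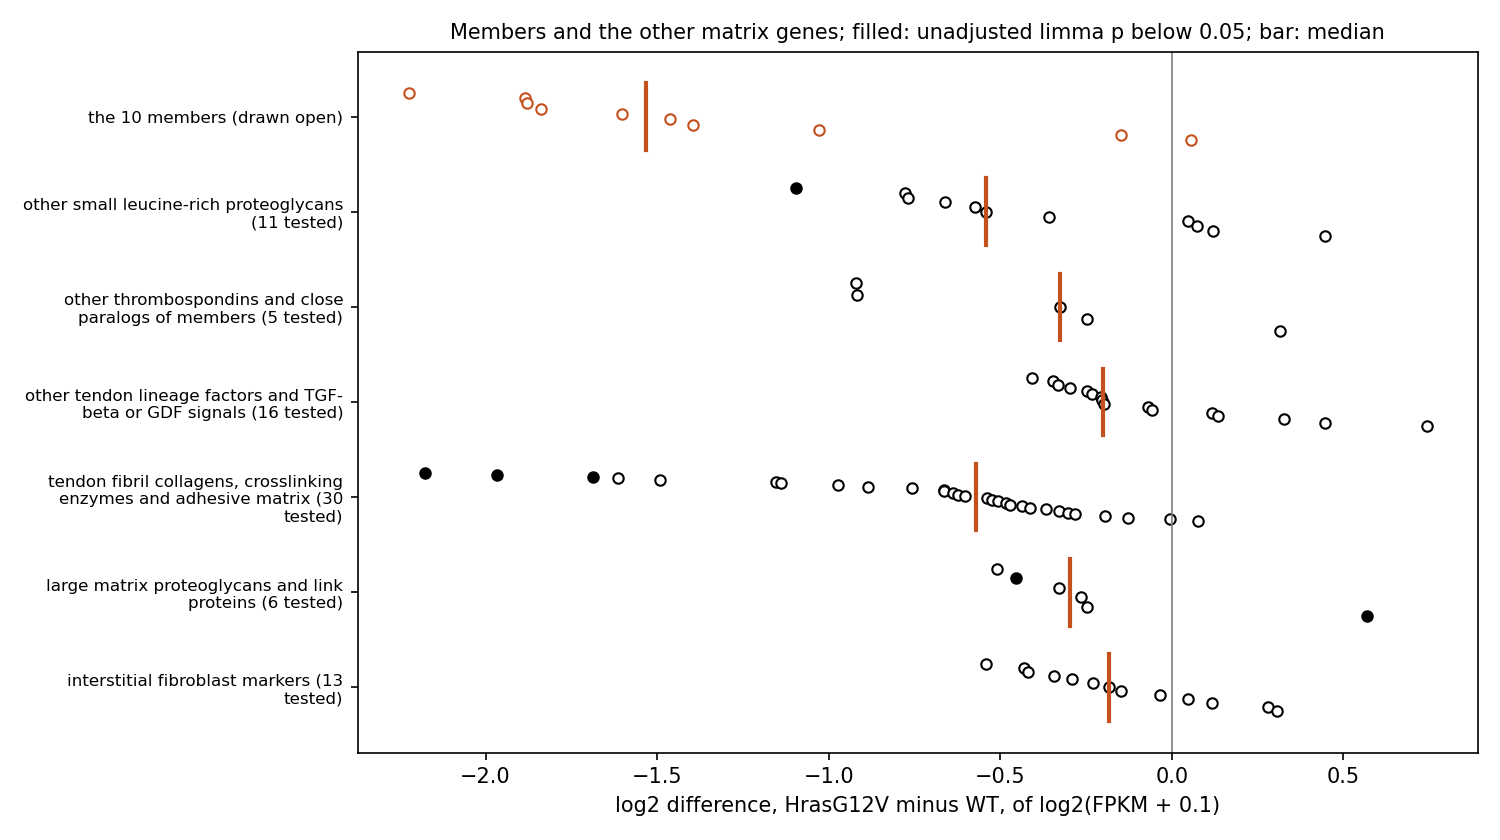
Log2 difference (HrasG12V minus WT, of log2(FPKM + 0.1)) of the 10 genes and of the tested genes of 5 other lists and of fibroblast markers, 1 point per gene, filled where the unadjusted limma p was below 0.05, with the median as an orange bar; the 10 genes (orange outlines) are drawn open whatever their p. The median is -1.53 for the 10 genes and between -0.57 and -0.18 for the other lists.

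Of 6 thrombospondins and close paralogs (*Thbs1*, *Thbs2*, *Thbs3*, *Cilp*, *Lect1* and *Tcf15*), 5 were tested, 0 had an unadjusted limma p below 0.05 and the median log2 difference was -0.33. The lowest was *Thbs2*, at -0.92 (standard error 0.53, limma, adjusted p = 0.614), which was -0.30 without mouse 2276 and -1.31 without mouse 2278. *Cilp*, the paralog of *Cilp2*, had the highest, at 0.32 (standard error 0.39, limma, adjusted p = 0.835), which was 0.0033 without WT mouse 2281, 0.05 without mouse 2278, 0.56 without WT mouse 2280 and 0.61 without mouse 2279. Of 19 other tendon lineage factors and TGFβ or GDF signals, which act upstream of *Scx* and *Mkx* in tendon formation, 16 were tested and 0 had an unadjusted limma p below 0.05. Their log2 differences ran from -0.41 for *Eya1* to 0.74 for *Egr1*, a growth factor response gene that also drives tendon collagen genes, with a median of -0.20. With 1 mouse left out *Egr1* ran from 0.15 (without mouse 2278) to 1.31 (without WT mouse 2280), and it was 0.37 without WT mouse 2277. *Eya1* ran from -0.56 (without mouse 2279) to -0.25 (without mouse 2276), and it passed the unadjusted threshold 1 of 6 times, without mouse 2279. *Egr1* varied widely, from 10.7 to 39.5 FPKM in WT and from 19.5 to 69.1 FPKM in HrasG12V mice.

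Of 15 large matrix proteoglycans and link proteins, 6 were tested, 1 was lower and 1 higher by the unadjusted limma p, and the median log2 difference was -0.30. *Hspg2*, perlecan of the basement membrane, had a log2 difference of -0.45 (standard error 0.18, limma, adjusted p = 0.481), and *Srgn*, serglycin, a proteoglycan of blood cell granules, one of 0.57 (standard error 0.23, limma, adjusted p = 0.483). Both genotypes were without overlap for each gene, an order that 10.4% of genes showed with lower and 8.11% with higher values in HrasG12V. With 1 mouse left out in turn *Hspg2* stayed past the unadjusted threshold 2 of 6 times and *Srgn* 1 of 6 times.

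Markers of other cell types were summed in each mouse, and their counts past the unadjusted p are again to be read against 10.2% of all genes, the lists being so short that 1 gene exceeds that share in most of them. The 9 genes without *Dcn* summed to 326, 725.5 and 624 FPKM in WT mice 2277, 2280 and 2281 and to 114, 230.3 and 235 FPKM in HrasG12V mice 2276, 2278 and 2279, without overlap. As 7 of these genes were each without overlap and chosen with the contrast known, that separation carries no weight of its own. The 13 interstitial fibroblast markers (*Pdgfra*, *Ly6a* and others, *Dcn* among them) summed to 964 to 1056 FPKM in WT and 806 to 1165 FPKM in HrasG12V mice, with 0 of 13 past the unadjusted limma p and a median log2 difference of -0.18. The fibroblast sum was below all WT mice in mice 2276 (914 FPKM) and 2279 (806 FPKM), the direction of the 9 genes, and above all WT mice in mouse 2278 (1165 FPKM). The median difference of these markers from the WT mean, on the log2 scale, was -0.10, 0.19 and -0.63 in mice 2276, 2278 and 2279. Of 11 cartilage markers 9 were below the limit for testing. Among them *Acan* was at 0.0223 to 0.653 FPKM in the 6 mice, while *Col2a1* was at 3.32 to 8.36 FPKM in WT and 0.836 to 3.09 FPKM in HrasG12V mice (log2 difference -1.72, limma, adjusted p = 0.432, unadjusted p below 0.05, which held 3 of 6 times with 1 mouse left out). The 11 cartilage markers summed to 5.74 to 12.3 FPKM in WT and 2.52 to 5.51 FPKM in HrasG12V mice. *Col2a1* was the largest part of that sum in every mouse but 2276, and the other genes were not all lower: *Acan* and *Matn3* had lower means in HrasG12V, and *Col9a1*, *Col9a2* and *Col9a3*, at 0.0313 to 0.454 FPKM in the 6 mice, had higher ones. Of 8 bone markers, *Bglap2* and *Ibsp* were listed at 0 in all 6 mice, and 2 were tested, neither past the unadjusted limma p. The myotendinous junction list held 1 of 6 genes with an unadjusted limma p below 0.05, *Col22a1*, a collagen of that junction. *Col22a1* was at 9.06, 15.1 and 15.7 FPKM in the WT mice (2277, 2280 and 2281) and at 7.09, 7.07 and 5.75 FPKM in HrasG12V mice 2276, 2278 and 2279, a log2 difference of -0.96 (standard error 0.25, limma, adjusted p = 0.382). It stayed past the unadjusted threshold whichever of the 6 mice was left out.

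**Figure D4:**
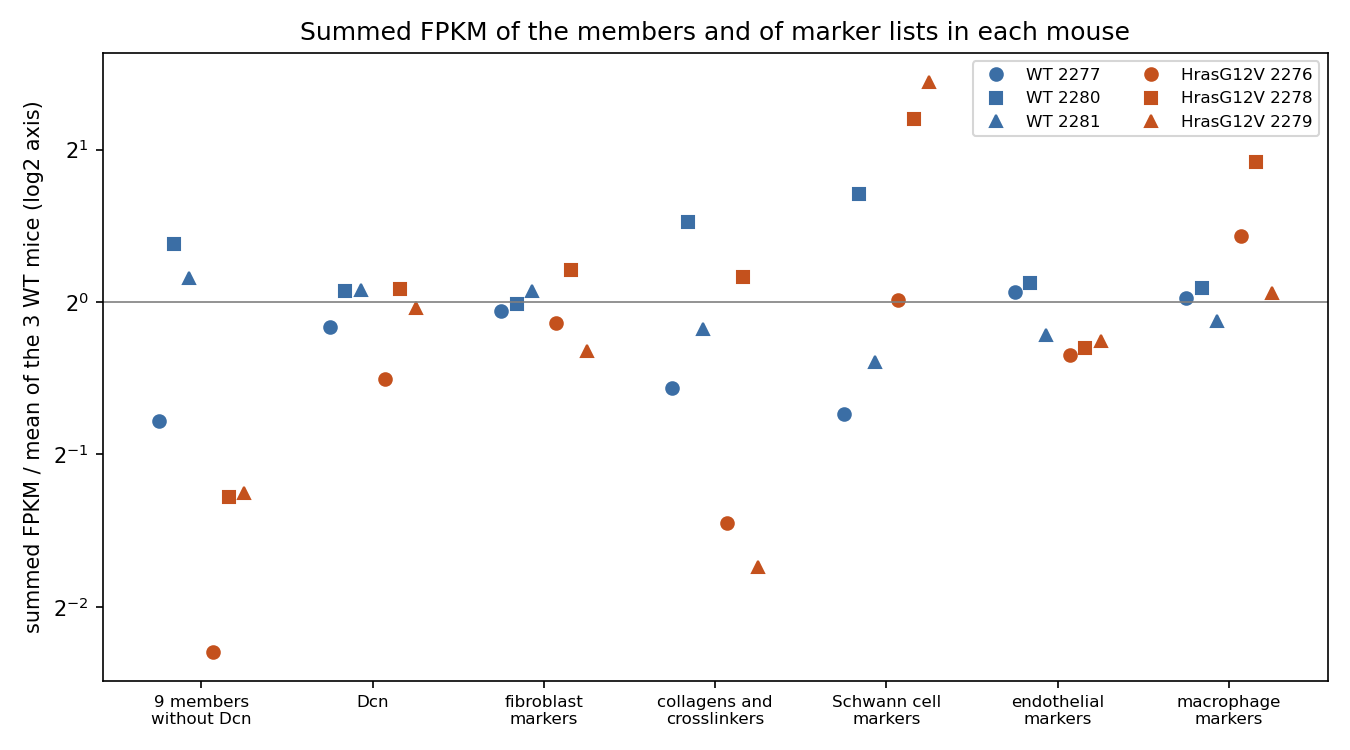
FPKM summed over the 9 genes without *Dcn*, *Dcn* alone, fibroblast markers, the collagen and crosslinking list, and Schwann cell, endothelial and macrophage markers, each divided by the mean of the 3 WT mice (log2 axis), 1 symbol per mouse. The sums of the 9 genes are separate between genotypes, and mouse 2278 is above the WT mean for *Dcn*, fibroblast markers and the collagen list.

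Muscle identity was seen in *Pvalb* and *Ttn*, at 10828 FPKM or more and at 151 FPKM or more in every mouse, whereas *Acta1* and *Myh4*, among the most abundant muscle genes, were listed at 0 in all 6 mice. Other muscle genes were listed at 0 in some mice: *Ckm* in every mouse but 2278, *Tnnt3* in mouse 2276 and *Myh1* in WT mice 2277 and 2280. Every value carried the quantification status OK, so none of these zeros was flagged, and whether they were failed estimates was not tested. Zeros that differed between libraries entered the genes tested, and the sum of the 8 myofiber markers was therefore not compared. The 7 Schwann cell markers had sums of 140, 381 and 177 FPKM in WT and 235, 534 and 634 FPKM in HrasG12V mice 2276, 2278 and 2279, with 2 of 7 higher by the unadjusted limma p. The 6 adipocyte markers summed to 402 to 710 FPKM in WT and 791 to 847 FPKM in HrasG12V mice (1 of 6 higher). Most of that sum was *Fabp4*, at 395 to 678 FPKM in WT and 713 to 769 FPKM in HrasG12V mice. In mouse 2276 *Adipoq*, *Plin1* and *Cidec* were within the WT range, *Lep* was just below it and *Retn* above it. The 5 macrophage markers found summed to 41.6 to 48.3 FPKM in WT and 47.1 to 85.7 FPKM in HrasG12V mice (1 of 5 higher). The 6 endothelial markers summed to 149 to 189 FPKM in WT and 137 to 145 FPKM in HrasG12V mice (1 of 6 lower). The 7 B and T cell markers had sums of 1.06 to 1.41 FPKM in WT, and among the HrasG12V mice 1.89 FPKM (mouse 2276), 88.9 FPKM (2278) and 77.9 FPKM (2279), with 6 of 7 higher. The part of these cell types, and of the amount of tendon taken with each muscle, in the differences of the 10 genes was not tested.

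The 5 other genes with a mean of at least 1 FPKM whose centred log2 values lay nearest to the mean profile of the 10 genes over the 6 mice were *Col8a2*, *Ptgis*, *Cybrd1*, *Aldh1l2* and *Zfp185*, at a mean absolute difference of 0.151, 0.153, 0.158, 0.203 and 0.211. *Col8a2* encodes a short-chain collagen and *Ptgis* the prostacyclin synthase. *Col8a2* was at 2.17, 5.54 and 3.12 FPKM in the WT mice (2277, 2280 and 2281) and at 0.684, 1.66 and 1.14 FPKM in HrasG12V mice 2276, 2278 and 2279, highest in mouse 2280 and lowest in mouse 2276 as were *Comp*, *Mkx*, *Thbs4*, *Chad* and *Cilp2*. These genes were picked for their likeness, so no test of their genotype differences is given.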

How the data were processed

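RNA from the gastrocnemius muscle of 6 mice, 1 library per mouse, was converted to libraries with a strand-keeping mRNA kit and read from 1 end. Before depositing the files the authors mapped the reads with TopHat and computed FPKM per gene with Cufflinks and Cuffnorm, which scales libraries to each other. The submitters' processing notes name GRCm38 and mm10, without versions, which the sources used here do not give. The study's methods name a target read number, but the deposited files hold no counts, so the reads behind each FPKM in each library are not known: the fullest interval of 0.01 in the log2 ratio of values under 0.1 FPKM held 0.798% to 4.83% of genes, so whole reads were not recovered, and precision is known only from the spread between mice.

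Genes with a mean of at least 0.5 FPKM (13359, all 10 genes of the list among them) were fitted as log2(FPKM + 0.1) in R 4.3.3 by limma 3.58.1 (moderated variances that follow the mean level, no covariate, Benjamini-Hochberg over all genes tested, threshold 0.05). The fit was tested on simulated data whose spread was equal in every library and independent between genes. The real libraries differ from that setting, as the array weight of mouse 2276 was 0.0933, the lowest. The log2(FPKM + 0.1) scale understates changes of low genes. The 10 genes and all lists were chosen with earlier results of these data known. Text names the 10 genes, list genes past the unadjusted p (the highest and lowest of lists with none), leading markers and the 5 nearest profiles. Genes added after their values were seen were *Chadl*, *Lum*, *Prelp*, *Epyc*, *Optc*, *Bop1*, *Acsf2*, *Acan*, *Matn3*, *Col9a1*, *Col9a2*, *Col9a3*, *Col1a1*, *Col1a2*, *Col3a1*, *Col5a1*, *Col14a1*, *Col2a1*, *Col22a1*, *Ttn*, *Pvalb*, *Acta1*, *Myh4*, *Ckm*, *Tnnt3*, *Myh1*, *Fabp4*, *Cidec*, *Lep*, *Retn*, *Bglap2* and *Ibsp*. Positions came from GENCODE vM21 and promoters from RefSeq (GRCm38.p6). Python 3.11.15, pandas 2.3.3 and matplotlib 3.10.9 made tables and figures. Alternatives were other pseudocounts, filters and scalings, array weights, no moderation, Y linked transcripts as a covariate and dropping 1 mouse at a time; the 4 mice with Y linked transcripts were compared after the data were seen.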

Additional observations from a re-analysis of the deposited data

How the results depend on the processing

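The median log2 difference of the 10 genes stayed negative under every alternative, between -1.89 and -1.17 with 1 mouse left out, and moved by less than the spread between mice. Of the 10 genes, 8 had a negative difference under every alternative, *Scx* moved from 0.06 to -0.65 in the 4 mice with Y linked transcripts and ran from -0.34 to 0.35 with 1 mouse left out, and *Dcn* ran from -0.27 to 0.03. The number of the 10 genes at a log2 difference of -1 or lower was 8, and it was 6 with array weights or without mouse 2276 and 7 with a pseudocount of 1 or without WT mouse 2280. The unadjusted limma p of the 10 genes, which is no evidence for a list chosen on this contrast, was below 0.05 for 8 of them. This number was 2 with array weights, 4 without moderation and 5 with libraries rescaled to the same total or without mouse 2276, 2280 or 2281. It was 6 without mouse 2279, 9 in the 4 mice with Y linked transcripts, and 7 or 8 under the other alternatives. The number of genes called at an unadjusted p below 0.05 was 1358, and it was 717 with libraries rescaled to the same total, 3042 with array weights, 2764 in the 4 mice and 606 to 4006 with 1 mouse left out (4006 without mouse 2276, and 631, 690 and 606 without WT mice 2277, 2280 and 2281). The number at an adjusted p below 0.05 was 8, and it was 5 with a pseudocount of 1, 572 with array weights, 1 without moderation, 372 in the 4 mice and 6 to 1374 with 1 mouse left out (1374, 16 and 13 without mice 2276, 2278 and 2281). With array weights the split of unadjusted calls was 1397 higher and 1645 lower, against 692 and 666.

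In the collagen list 3 genes were called, 7 with the Y linked covariate, 6 in the 4 mice, 5 with quantile normalization, 1 without moderation and 2 to 19 with 1 mouse left out (19 without mouse 2278, 5 without WT mouse 2277). Among other small leucine-rich proteoglycans 1 was called, 0 after rescaling or with a mean of at least 1 FPKM, 2 without a filter and 0 to 5 with 1 mouse left out (5 without mouse 2278, 0 without mouse 2277, 2279, 2280 or 2281). Among large proteoglycans 2 were called, 0 after rescaling, quantile normalization or the Y linked covariate, 1 without moderation or in the 4 mice and 0 to 2 with 1 mouse left out (0 without mouse 2279, 2280 or 2281, 1 without mouse 2277 or 2278). Among thrombospondins and paralogs 0 were called, 1 with array weights, the covariate or the 4 mice and 0 to 1 with 1 mouse left out (1 without mouse 2276 or 2278). Among lineage factors and signals 0 were called, 1 with the covariate or no filter, 2 with array weights, 3 in the 4 mice and 0 to 4 with 1 mouse left out (4 without mouse 2276, 2 without mouse 2279). The causes were not tested. No paired analysis was possible because the labels name no litter for these littermates and the genotypes share no mouse number.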
